A study of Mus musculus with 12 samples.

Results

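The genes described here encode the cytosolic ribosomal proteins, measured in cerebella from Ciz1 knockout mice and from control mice. They were chosen by symbol, as Rpl or Rps followed by a digit together with Rplp0, Rplp1, Rplp2 and Rpsa, leaving out the S6 kinases (Rps6k) and symbols marked as pseudogenes. The array's annotation gave 69 such genes among 22180 genes with a row of their own. Of these, 35 encode proteins of the large subunit and 23 proteins of the small subunit, which is 58 of the 80 proteins of the mammalian ribosome. A further 10 are paralogs or retrotransposed copies, and Rps19bp1 is named for a protein that binds Rps19 and is not itself ribosomal. Another 12 ribosomal proteins (Rpl10, Rpl12, Rpl13a, Rpl23, Rpl24, Rpl31, Rpl35a, Rpl36, Rpl36a, Rps2, Rps15a and Rps21) were covered only by rows shared with other symbols. Fau, which encodes a small subunit protein fused to a ubiquitin-like domain, had a row outside the symbol rule. The remaining 9 were not analysed here.

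Each of the 12 Affymetrix arrays carried total RNA of the cerebellum, and the 4 groups held 3 arrays each. The knockout groups were Ciz1-/- males and Ciz1-/- females, and the control groups were wild-type males and wild-type females. The sources differ on the controls, whose genotype field reads Ciz1+/- while the source names and the extraction protocol give wild type and Ciz1+/+, and on age, given as 10 months in the protocol and as 6 to 10 months in the design. The deficiency was in the germline and so not limited to a cell type. Strain, litter and the way the allele was made were not given in the sources used here. Each level below is the log2 of the deposited intensity, and each difference is on that log2 scale.

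Ribosomal proteins coat and stabilise the ribosomal RNA of the small subunit, which decodes the messenger RNA, and of the large subunit, which forms the peptide bond. Cells make them in matched amounts, and their mRNAs are among the most abundant in any tissue. In mammals these mRNAs begin with a C followed by a run of pyrimidines, the terminal oligopyrimidine (TOP) motif, through which the TOR pathway adjusts their translation as a group. Ciz1 is a nuclear zinc finger protein that takes part in DNA replication and in the anchoring of Xist RNA on the inactive X chromosome.

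Transcription start regions were available in RefSeq (GRCm38.p6) for 54 of the 69 genes. The first set shows starts with a pyrimidine run, drawn from genes whose levels are described below, with 25 bases before the start followed by 15 bases after it and the longest run of C or T near the start in capitals.
Rps27 (chr3:90213634-90213673, minus strand): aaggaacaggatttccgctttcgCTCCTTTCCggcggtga
Rps6 (chr4:86857353-86857392, minus strand): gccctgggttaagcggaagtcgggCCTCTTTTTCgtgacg
Rpl28 (chr7:4792940-4792979, plus strand): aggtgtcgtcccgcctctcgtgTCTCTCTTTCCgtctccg
Rps24 (chr14:24490653-24490692, plus strand): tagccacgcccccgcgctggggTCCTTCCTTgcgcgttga
Rps26 (chr10:128626492-128626531, minus strand): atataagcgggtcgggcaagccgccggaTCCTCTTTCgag

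The second set shows annotated starts of genes with values in the same comparisons that lack such a run at this place. For Rps19, Rpl22 and Rps24, which have more than 1 annotated start, the start shown is the first by coordinate.
Rps19 (chr7:24884567-24884606, plus strand): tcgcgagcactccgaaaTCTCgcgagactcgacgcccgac
Rps4x (chrX:102189377-102189416, minus strand): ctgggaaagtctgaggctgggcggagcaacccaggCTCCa
Rps3 (chr7:99483695-99483734, minus strand): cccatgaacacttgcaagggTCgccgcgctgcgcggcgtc
Rpl22 (chr4:152324411-152324450, plus strand): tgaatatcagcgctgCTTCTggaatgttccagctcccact

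The 54 genes had 63 annotated start regions of 300 bases, 250 before and 50 after the start, some of them overlapping. A run of at least 8 pyrimidines on the coding strand within 10 bases before to 15 bases after the start was present in 33.3% of them, against 9.46% of 21262 start regions of protein-coding genes. The letters CTTTCC in the same window, which can lie inside such a run, were present in 11.1% against 1%. Over all 300 bases and both strands, CTTCCGG, the core read by ETS family factors, was found in 36.5% of these regions against 11.6% of all. GCCATNTT, which resembles the YY1 site, was found in 15.9% against 6.37%, the Sp1 core GGGCGG in 50.8% against 46.2%, and the TATA box letters TATAAA in 9.52% against 12.6%. These are matches of letters at annotated starts and carry no measurement of binding.

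Ciz1 was read first as a check of the labels. Its level was 8.73, 8.73 and 8.73 in the wild-type males and 8.90, 8.70 and 8.80 in the wild-type females. In the knockout males it was 7.26, 6.82 and 7.10, and in the knockout females 7.32, 7.17 and 7.09, so every knockout array lay below every control array. The level fell by 1.64 (SE 0.073, limma adjusted p = 1.42e-06). Granule cell and Purkinje cell markers were high in all 12 arrays, with mean levels over the lists between 10.89 and 11.03 and between 10.87 and 11.09. The choroid plexus marker Ttr varied between arrays within every group, from 8.88 to 13.33 in the controls and from 7.59 to 13.11 in the knockouts. All 13 measured choroid plexus markers were lower in the knockouts, with a median difference of -0.26. In limma 2 of them reached an unadjusted p under 0.05 (15.4%, against 9.26% of all genes) and 0 passed the adjusted threshold. The mean level of that list overlapped, from 6.66 to 7.97 in the controls and from 6.46 to 7.60 in the knockouts. The 11 measured oligodendrocyte markers were all lower in the knockouts, with a median difference of -0.28. All 11 reached an unadjusted p under 0.05 in limma (100%, against 9.26% of all genes) and 1 passed the adjusted threshold. In males their median was -0.17, with 0 of 11 at that unadjusted p (against 5.42% of all genes). In females it was -0.36, with 9 of 11 (against 8.49% of all genes). The mean level of the oligodendrocyte list ranged from 9.10 to 9.29 in the controls and from 8.78 to 9.22 in the knockouts. The part of these cell types in the values below was not tested except by a fit with the choroid plexus level as a covariate. In whole cerebellum, fewer cells of a type and less RNA per cell cannot be told apart.

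As a group the brightest rows of the ribosomal protein genes were bright and varied about as much between arrays as those of other genes. Of the 69, 50 lay above the 50th percentile of brightness of all genes and 18 above the 90th. These include genes read in a row that lay among rows of another chromosome. For 19 such genes a row among rows of their own chromosome was dimmer, by a median of 2.81. The difference between the highest and the lowest of the 12 arrays had a median of 0.39 over the genes and ran from 0.16 for Rpl7a, a large subunit protein, to 1.09 for Rps15, a small subunit protein. The median residual SD was 0.111, the same as over all 22180 genes. It was 0.084 for the 23 genes whose row lay among rows of another chromosome, described below, and 0.12 for the other 46. Rps15 read 6.05, 6.55 and 5.79 in the wild-type males, 6.10, 6.10 and 5.90 in the wild-type females, 5.79, 5.94 and 6.18 in the knockout males and 6.44, 6.06 and 5.46 in the knockout females. Its high and low arrays fell in both genotypes.

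**Figure D1:**
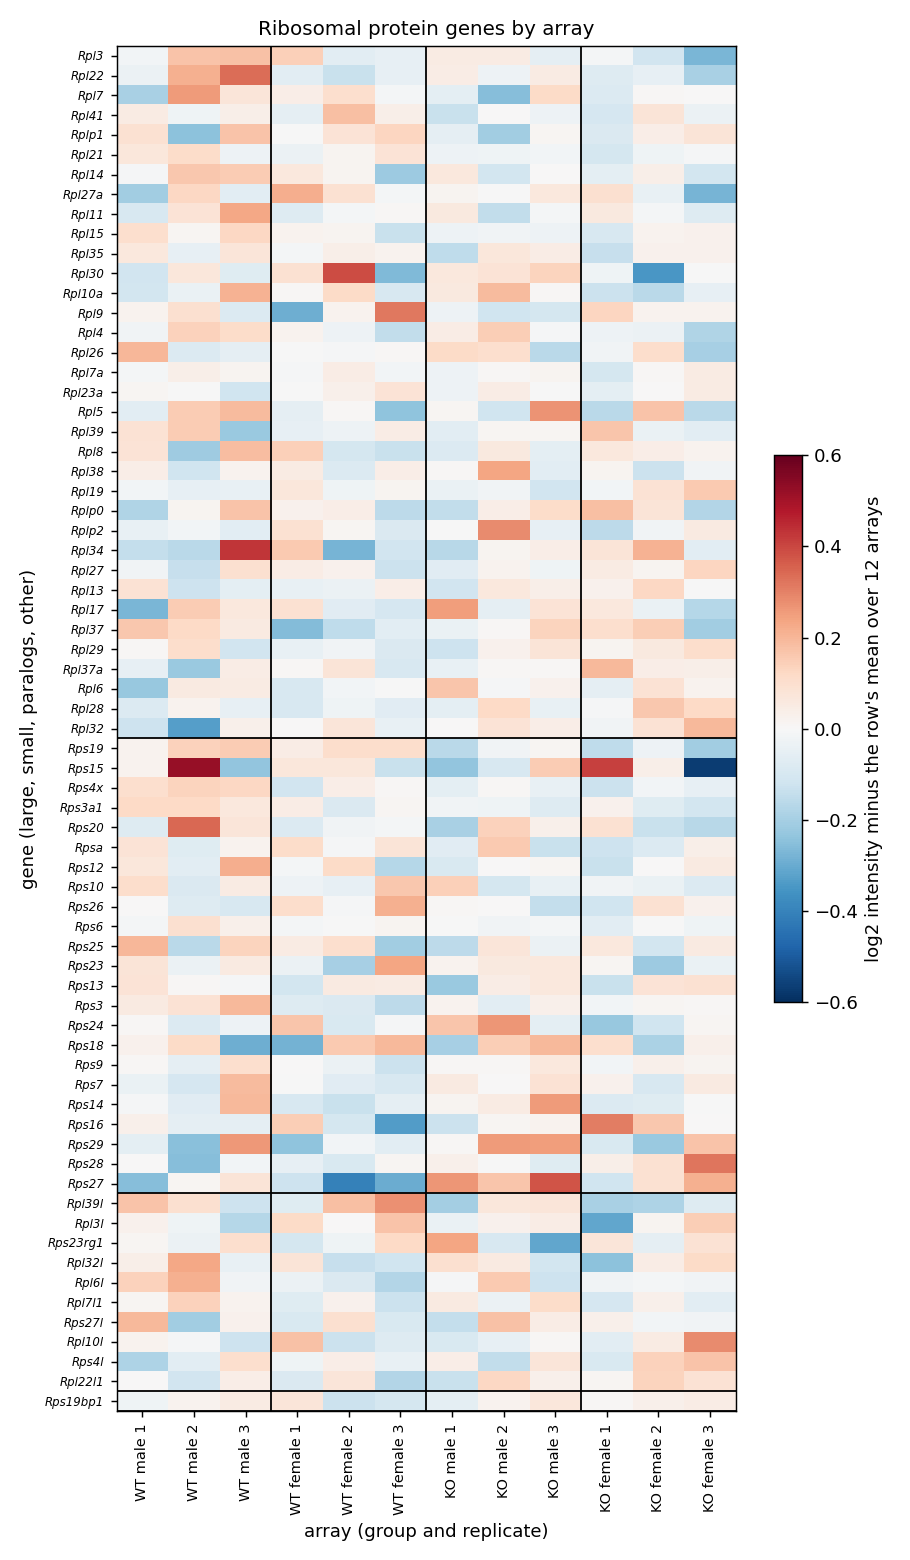
Each row is a ribosomal protein gene and each column an array; colour is the log2 intensity minus that row's mean over 12 arrays, from blue (lower) to red (higher). Within the large subunit, small subunit and paralog blocks genes are ordered by their genotype difference, from Rpl3 (-0.12) to Rpl32 (0.13) in the large subunit and from Rps19 (-0.19) to Rps27 (0.33) in the small subunit.

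The brightest rows were those of Rps6, Rpl21, Rpl41, Rpl28 and Rpl29. Each of these rows lay among rows of a chromosome other than its gene's, so which copy it reads is uncertain, as described below. Rps6, the small subunit protein phosphorylated by S6 kinase, read 13.08, 13.18 and 13.12 in the wild-type males and 13.08, 13.09 and 13.11 in the wild-type females. It read 13.08, 13.07 and 13.07 in the knockout males and 13.03, 13.09 and 13.06 in the knockout females, a genotype difference of -0.041 (SE 0.037). The 12 arrays of this gene overlapped and lay within 0.16 of each other. The large subunit genes Rpl21, Rpl41 and Rpl29 had genotype differences of -0.072, -0.075 and 0.052, none past the threshold. The dimmest rows were those of Rpl10l, Rpl22l1, Rpl3l and Rps23rg1, which are paralogs or copies, and of Rps29, a small subunit protein with a genotype difference of 0.12 (SE 0.10). Brightness of different probes is not a measure of relative abundance.

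Loss of Ciz1 was compared first over both sexes, 6 knockout against 6 wild-type arrays. No ribosomal protein gene passed an adjusted p of 0.05 over all genes in limma's moderated test, where 5 of 22180 genes did (0.0225%). At an unadjusted p under 0.05 there were 4 of the 69 genes, 1 higher and 3 lower, which is 5.8% against 9.26% of all genes. The median difference was -0.008, with 31 genes higher and 38 lower, beside -0.001 over all genes. Intervals were read from the brightest row of each gene. The 95% interval of the genotype difference lay within 0.2 of zero for 41 of the 69 genes (59.4%, against 50.5% of all genes). It lay within 0.3 for 65 (94.2%, against 82%). The 4 genes whose interval reached past 0.3 were Rpl39l, Rps15, Rps27 and Rps29. Array by array, the median deviation of the 69 genes ran from -0.047 to 0.049 in the controls and from -0.029 to 0.012 in the knockouts, so the genotypes overlapped.

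**Figure D2:**
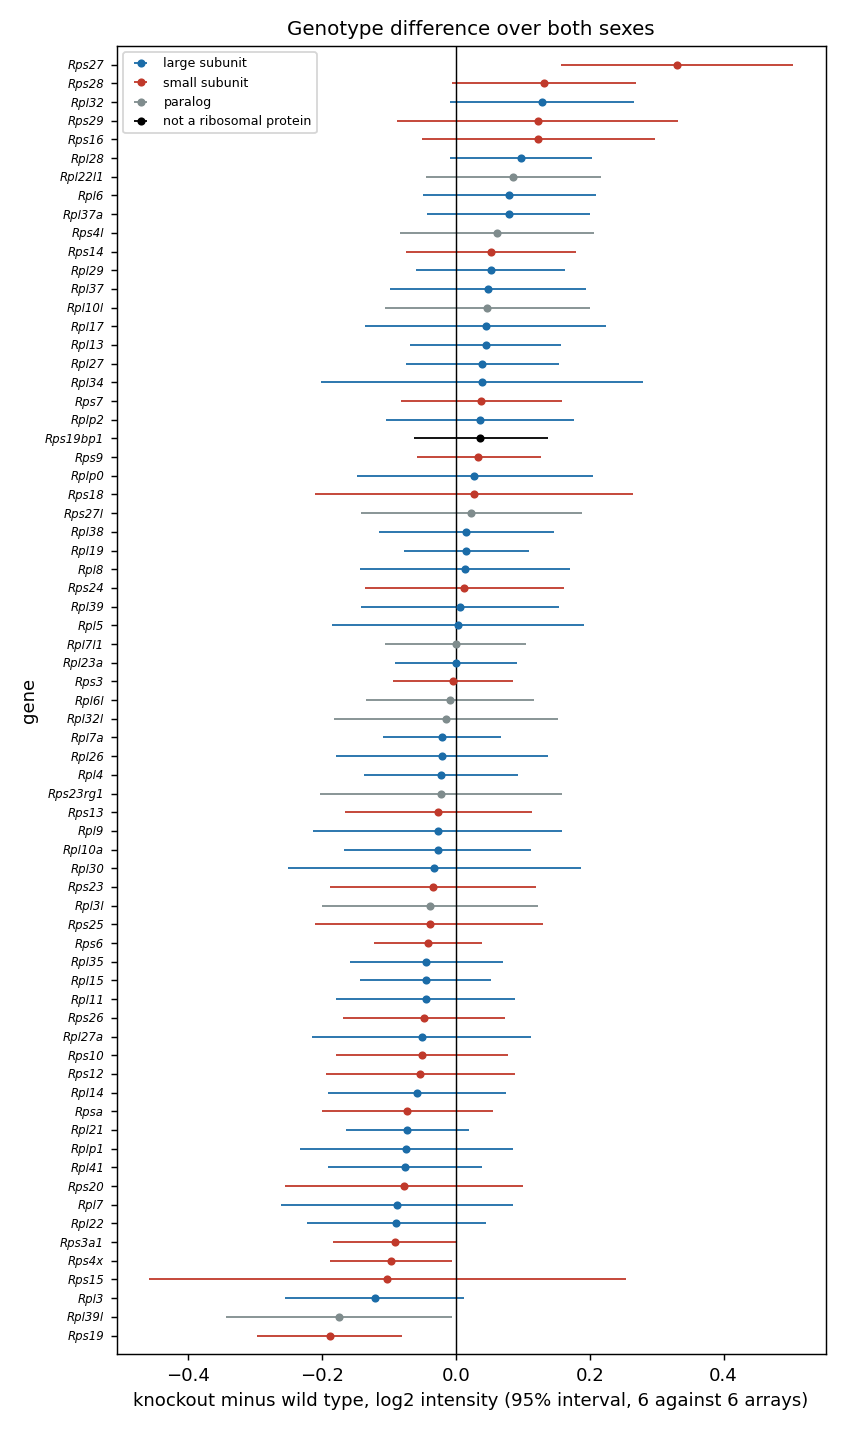
Points are the knockout minus wild-type difference of each gene over both sexes (log2 intensity, 6 against 6 arrays) and bars its 95% interval from the limma fit, coloured by class. Rps27 at the top (0.33) and Rps19 at the bottom (-0.19) have the intervals farthest from 0, and most others include it.

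Of the small subunit genes, 9 were higher and 14 lower in the knockouts, with a median of -0.034 and differences from -0.19 to 0.33. Rps27, a zinc finger protein of the small subunit also called metallopanstimulin, gave the upper end. Its level was 6.29, 6.55 and 6.62 in the wild-type males and 6.42, 6.14 and 6.25 in the wild-type females. In the knockouts it was 6.81, 6.71 and 6.92 in the males and 6.42, 6.63 and 6.75 in the females. Of the 6 knockout arrays, 5 lay above every control array, and knockout female replicate 1 lay among the controls. The genotype difference was 0.33 (SE 0.079, 95% interval 0.16 to 0.50), a fold of 1.26, with a limma adjusted p = 0.281. It was of like size in males (0.33) and in females (0.34), with an interaction of 0.010 (SE 0.16). A second row that names Rps27 together with Rps27rt, a retrotransposed copy, differed by 0.08 (SE 0.088), with 0.22 in males and -0.06 in females. The row of Rps27 alone lay at percentile 42.2 of brightness, with a mean level of 6.54, against 8.03 for the shared row.

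Rps19, a small subunit protein needed for maturation of the small subunit's ribosomal RNA and mutated in Diamond-Blackfan anaemia, gave the lower end. It read 8.79, 8.91 and 8.93 in the wild-type males and 8.82, 8.88 and 8.88 in the wild-type females. It read 8.61, 8.75 and 8.79 in the knockout males and 8.62, 8.74 and 8.57 in the knockout females. All 6 knockout arrays lay below all 6 control arrays, the only ribosomal protein gene of the 69 in which the genotypes did not overlap (1.45%, against 0.55% of all genes). The difference was -0.19 (SE 0.049, 95% interval -0.30 to -0.080), a fold of 0.878, with a limma adjusted p = 0.318. With the choroid plexus level as a covariate the difference was -0.18 for Rps19 and 0.28 for Rps27. The Rps19 row lay among rows of chromosome 14, while the gene is on chromosome 7. Another row of Rps19, among rows of chromosome 7, differed by -0.10. In that row the genotypes overlapped, from 6.597 to 6.925 in the controls and from 6.537 to 6.747 in the knockouts.

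After Rps27, the largest positive differences were those of Rps28, Rps29 and Rps16 of the small subunit and Rpl32 and Rpl28 of the large subunit, and none passed. Rps28 differed by 0.13 (SE 0.062, limma adjusted p = 0.548), Rpl32 by 0.13 (SE 0.063) and Rpl28 by 0.10 (SE 0.049). The 35 large subunit genes ran from -0.12 for Rpl3, which lies near the peptidyl transferase centre, to 0.13 for Rpl32, with 17 higher, 18 lower and a median of 0.00. In its brightest row, every large subunit gene had a 95% interval within 0.3 of zero. Intervals were not computed for dimmer rows. Among rows of their own chromosome, Rpl29 differed by 0.23 (SE 0.079) and Rplp0 by -0.14 (SE 0.10). The genotype difference of Rpl3 was -0.12 (SE 0.061). This row of Rpl3 lay among rows of the X chromosome. Its dimmer rows, among rows of its own chromosome 15, differed by 0.01 (SE 0.068) and 0.075 (SE 0.086).

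**Figure D3:**
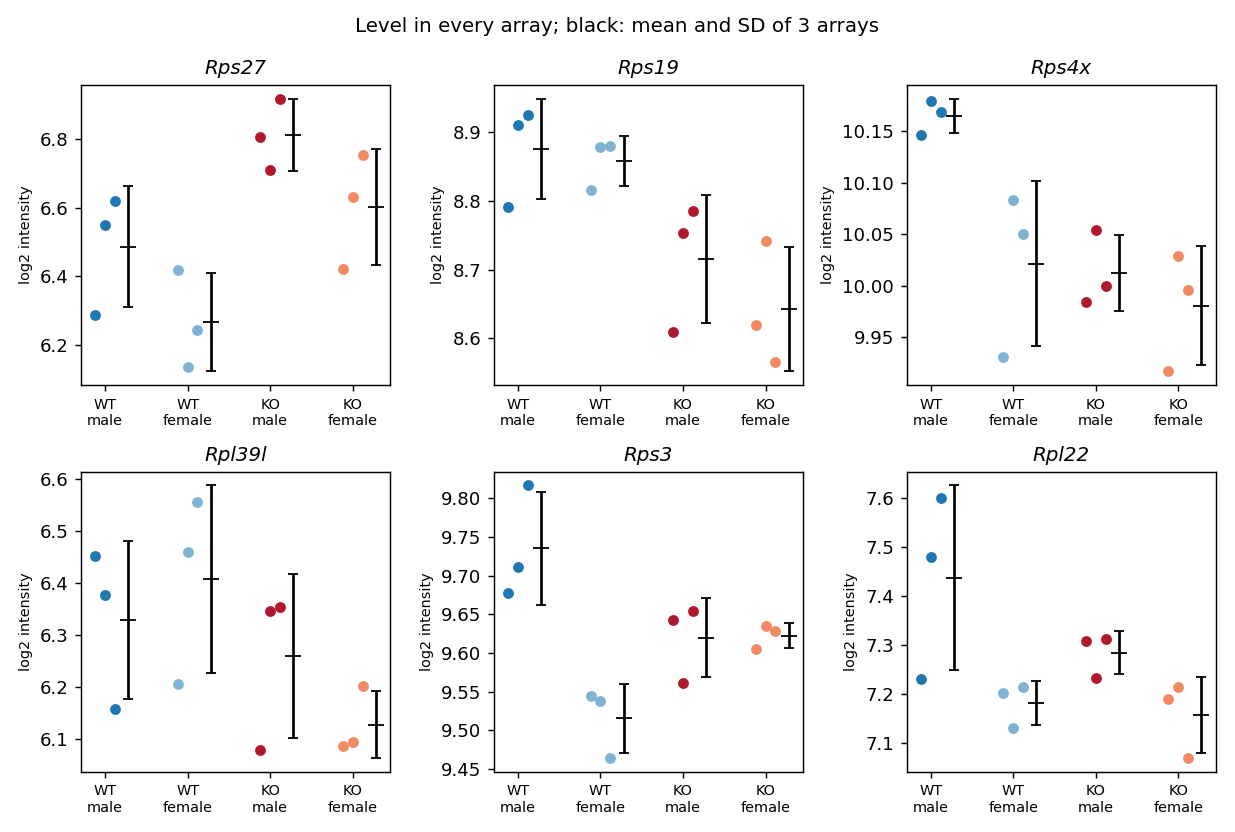
Points are single arrays and the black marks the mean and SD of 3 arrays, on the log2 intensity scale, for 6 genes; each panel has its own axis range, which does not start at 0. The knockout arrays of Rps19 all sit below the controls, those of Rps27 overlap with them in 1 array, and the female arrays of Rpl22 all sit below the male arrays.

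The X-linked genes with a row of their own were Rps4x and Rpl39. Rps4x, a small subunit protein, read 10.15, 10.18 and 10.17 in the wild-type males and 9.93, 10.08 and 10.05 in the wild-type females. It read 9.98, 10.05 and 10.00 in the knockout males and 9.92, 10.03 and 10.00 in the knockout females. The 3 wild-type males stood above all other arrays of this gene. The difference was -0.10 over both sexes (SE 0.042, limma adjusted p = 0.522), -0.15 in males and -0.040 in females, and the interaction was 0.11 (SE 0.084). Rpl39, a short protein at the exit tunnel of the large subunit, differed by 0.007 (SE 0.067). Rpl10 and Rpl36a, also X-linked, were covered only by rows with several symbols. The brightest of these for Rpl10 differed by 0.01 (SE 0.047), and by its number it fell among rows of chromosome 9. A dimmer row with the same symbols, numbered among rows of the X chromosome, differed by 0.11 (SE 0.095).

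Paralogs and copies had 4 genes higher and 6 lower, with a median of -0.004. Rpl39l, a paralog of Rpl39 best known from the testis, read 6.45, 6.38 and 6.16 in the wild-type males and 6.21, 6.46 and 6.56 in the wild-type females. It read 6.08, 6.35 and 6.36 in the knockout males and 6.09, 6.10 and 6.20 in the knockout females. The females of the 2 genotypes did not overlap, as for 14.9% of all genes, while the males did. The interaction was -0.21 (SE 0.15). Over both sexes the difference was -0.17 (SE 0.077, limma adjusted p = 0.528). The other paralogs had smaller differences: 0.086 for Rpl22l1, 0.061 for Rps4l, 0.047 for Rpl10l, -0.038 for Rpl3l, 0.023 for Rps27l, -0.022 for Rps23rg1, -0.015 for Rpl32l, -0.008 for Rpl6l and 0.00 for Rpl7l1. Rpl22l1 can take the place of Rpl22 in the ribosome, and its mRNA is known to be held down by Rpl22. Rpl22 itself differed by -0.089 (SE 0.061), and neither gene passed. Rps27l, the paralog of Rps27 and a p53 target, had an SE of 0.075 beside its 0.023. Rps19bp1 differed by 0.037 (SE 0.046).

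Within males, 3 knockout against 3 wild-type arrays, 0 of the 69 genes passed (0.0225% of all genes did), and 4 reached an unadjusted p under 0.05, or 5.8% against 5.42% of all genes. The 4 were Rps27 (0.33), Rps4x (-0.15), Rps3a1 (-0.14) and Rps19 (-0.16). Rps3a1, a small subunit protein near the mRNA exit, read 8.18, 8.18 and 8.12 in the wild-type and 8.04, 8.03 and 7.98 in the knockout males. Rpl32 (0.18, SE 0.089) and Rps24 (0.16, SE 0.10) came next by p on the higher side and did not reach it. Arrays of the 2 genotypes did not overlap for 6 of the 69 genes in males, 8.7% against 10.3% of all genes. Rps27 was higher in these, and Rpl15, Rps19, Rps3, Rps3a1 and Rps4x lower. The median difference in males was -0.015 beside -0.004 over all genes, and 0.006 without KO_male replicate 1.

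Within females, 0 of the 69 genes passed (0.0225% of all genes did), and 5 reached an unadjusted p under 0.05, or 7.25% against 8.49%. These were Rps27 (0.34), Rps16 (0.25) and Rpl28 (0.15) on the higher side, and Rps19 (-0.22) and Rpl39l (-0.28) on the lower. Rpl28, a large subunit protein, read 12.04, 12.12 and 12.07 in the wild-type and 12.13, 12.30 and 12.26 in the knockout females, with the genotypes separate. Rps16, a small subunit protein, read 6.73, 6.48 and 6.25 in the wild-type and 6.89, 6.74 and 6.58 in the knockout females, with the genotypes overlapping. Rpl3 had the next smallest p on the lower side (-0.15, SE 0.087). Arrays did not overlap for 8 genes, 11.6% against 14.9% of all genes, of which Rpl28, Rpl29, Rpl6l, Rps27, Rps28 and Rps3 were higher and Rpl39l and Rps19 lower. The median difference in females was 0.014 beside 0.002 over all genes, and it was -0.003 without WT_female replicate 1, -0.008 without WT_female replicate 3 and -0.006 without KO_female replicate 2.

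The genotype differences of the 2 sexes come from separate arrays. Across the 69 genes, which are not independent replicates, they had Pearson's r of 0.206 and Spearman's rho of 0.122, beside 0.166 and 0.161 over all genes. They had the same sign in 34 of 69 genes (49.3%), against 56.1% of all genes. For the small subunit r was 0.465 and rho 0.265 over 23 genes. For the large subunit they were -0.092 and -0.001 over 35, which describes these arrays only. Rps27 and Rps19 were at the corners of the small subunit points.

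**Figure D4:**
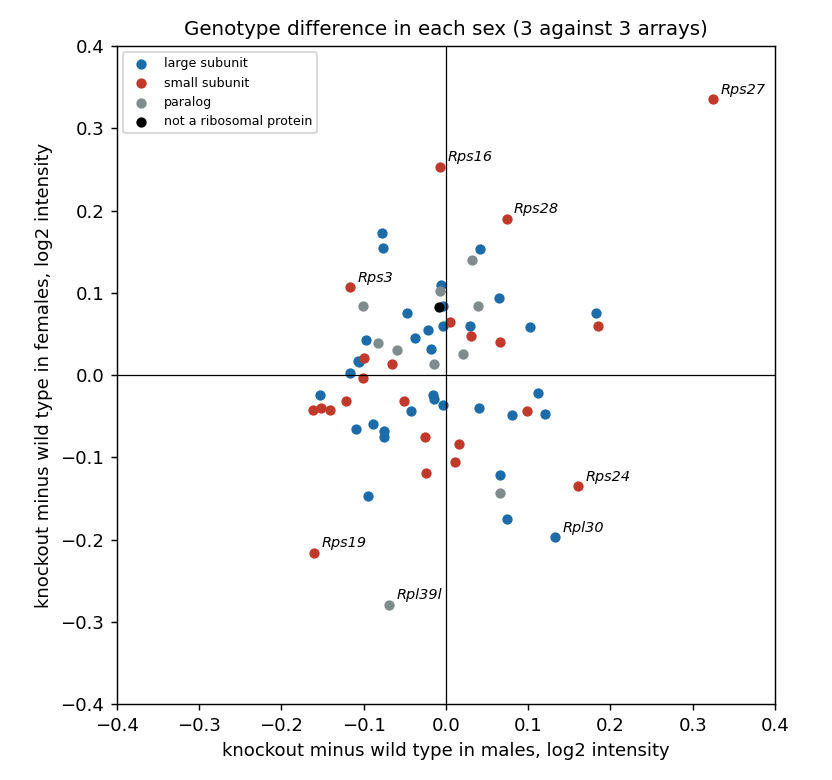
Each point is a gene, with its knockout minus wild-type difference in males on the horizontal axis and in females on the vertical axis (log2 intensity, 3 against 3 arrays each), coloured by class. Rps27 (0.33 in males, 0.34 in females) and Rps19 (-0.16 and -0.22) lie far from 0 in both sexes, while Rps3, Rps24 and Rpl30 have opposite signs.

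The difference between the sexes in the genotype effect was tested as an interaction, the female difference minus the male difference. None of the 69 genes passed, and 0 of 22180 genes did (0%). A single gene, Rps3, reached an unadjusted p under 0.05, or 1.45% against 4.82% of all genes. Rps3, a small subunit protein at the mRNA entry that also has a role in DNA repair, read 9.68, 9.71 and 9.82 in the wild-type males and 9.64, 9.56 and 9.66 in the knockout males. It read 9.54, 9.54 and 9.46 in the wild-type females and 9.61, 9.64 and 9.63 in the knockout females. The wild-type males were the highest group, the wild-type females the lowest, and the knockouts of both sexes lay between them. The difference was -0.12 in males and 0.11 in females, and the interaction 0.22 (SE 0.082, limma adjusted p = 0.99). The next genes by p were Rpl37 (0.25, SE 0.13) and Rps16 (0.26, SE 0.16) with positive values. Rps24 (-0.30, SE 0.14), Rpl27a (-0.25, SE 0.15) and Rpl30 (-0.33, SE 0.20) had negative values. For Rpl30, a large subunit protein, the spread was wide, with 6.83, 7.13 and 6.48 in the wild-type females. The median interaction was 0.032, with 44 genes positive and 25 negative, beside 0.007 over all genes.

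Females were compared with males over both genotypes, 6 against 6 arrays. No ribosomal protein gene passed, where 8 genes of all did (0.0361%), and 6 reached an unadjusted p under 0.05, or 8.7% against 7.93%. Of these, Rpl19 was higher in females (0.10) and Rpl22, Rps27, Rps3, Rpl4 and Rps14 were lower. Rpl22 binds double-stranded RNA structures besides its place in the large subunit, and read 7.23, 7.48 and 7.60 in the wild-type males and 7.31, 7.23 and 7.31 in the knockout males. It read 7.20, 7.13 and 7.21 in the wild-type females and 7.19, 7.21 and 7.07 in the knockout females. All 6 female arrays lay below all 6 male arrays, for this gene alone of the 69 (1.45%, against 0.469% of all genes). The difference was -0.19 (SE 0.061, limma adjusted p = 0.566). Rps27 differed by -0.21 and Rps3 by -0.11, while Rpl4 of the large subunit differed by -0.14 and Rps14 of the small subunit by -0.15. Rps26 (0.10) and Rps28 (0.11), both of the small subunit, followed Rpl19 by p on the higher side. Over all 69 genes, 26 were higher and 43 lower in females, with a median of -0.025 beside -0.003 over all genes. Of all 22180 genes 10805 were higher and 11375 lower. In the small subunit 17 of 23 genes were lower. The 46 genes read in a row among rows of their own chromosome had 13 higher and 33 lower, with a median of -0.040. Those read in a row among rows of another chromosome had 13 higher and 10 lower, with a median of 0.004.

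The deposited rows of many of these genes were not where the gene's own chromosome would place them. Row numbers of the table run chromosome by chromosome, so each row was compared with the 10 named rows on either side of it, with chromosomes taken from RefSeq. Of all 23325 rows with a single symbol and a chromosome, 1.07% lay among rows of another chromosome. The brightest row lay among rows of another chromosome for 23 of the 69 genes (33.3%), against 0.646% of all genes. Among genes with at least 2 rows of their own the shares were 80% of 25 ribosomal protein genes and 9.19% of all. Ribosomal protein genes have many near-identical processed copies in the genome, so which copy or gene these probes read is uncertain. Rps19, a chromosome 7 gene, had its brightest row among rows of chromosome 14, and Rps28, Rps26, Rps24, Rps3a1, Rps6, Rpl3, Rpl15, Rpl19, Rpl21, Rpl28 and Rpl29 were among the others. The rows of Rps27, Rps4x, Rps3, Rpl22 and Rpl39l lay in the run of their own chromosome.

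For 19 of the 23 genes a dimmer row lay among rows of the gene's own chromosome. The brightest row exceeded it by a median of 2.81, from 0.38 for Rpl41 to 5.53 for Rpl21. The genotype differences of both rows had the same sign in 11 of 19 genes, and Pearson's r between rows over the 12 arrays had a median of 0.20, from -0.51 for Rpl21 to 0.92 for Rpl41. For Rps19 the dimmer row differed by -0.10 (SE 0.066), in the same direction as the -0.19 of the brightest row. For Rps26 the brightest row differed by -0.05 and the other by 0.27, and for Rpl29 by 0.05 and 0.23, none of them past the threshold. In 3 genes, Rpl23a, Rps19 and Rps12, more than 1 row held identical values.

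**Figure D5:**
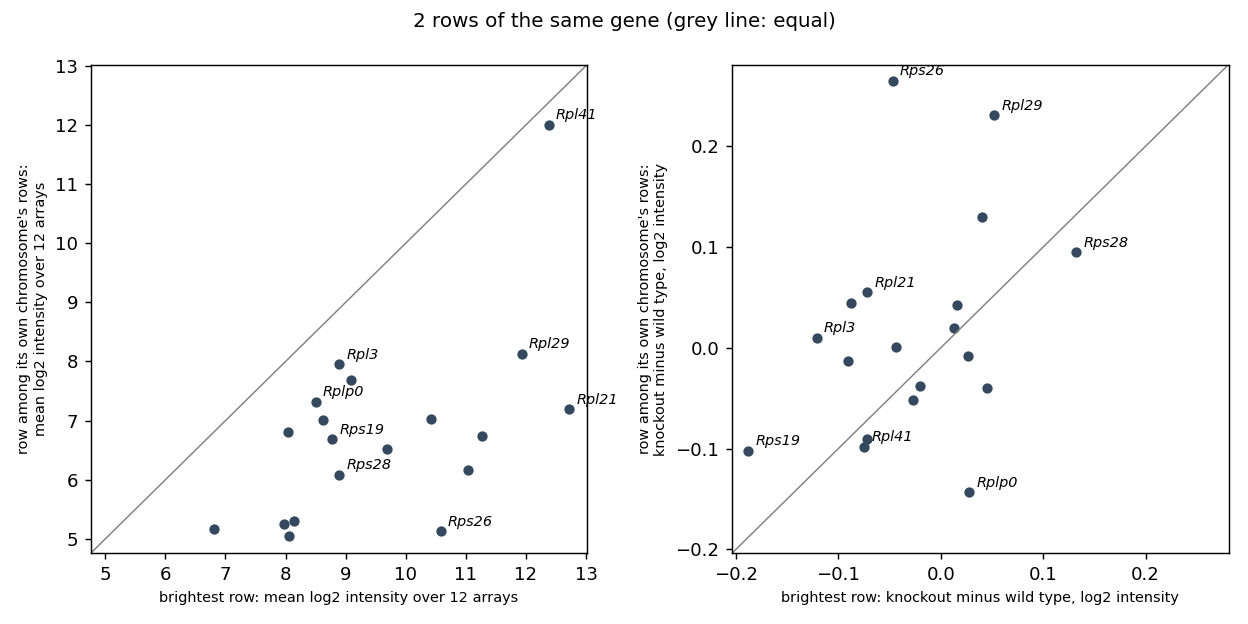
Each point is a gene whose brightest row lies among rows of another chromosome, with that row on the horizontal axis and its row in the run of the gene's own chromosome on the vertical axis. The left panel shows mean log2 intensity over 12 arrays, where all 19 points lie below the line of equality, and the right panel the knockout minus wild-type difference, where 11 of 19 have the same sign.

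Rows with several symbols were read as well. In a fit across all 41345 deposited rows, 57 rows named a ribosomal protein gene together with other symbols, and 1 of these reached an unadjusted p under 0.05 for genotype (1.75%, against 8.31% of all rows), with 0 past an adjusted p of 0.05. That row, of Rps12 and its pseudogenes, differed by 0.27 (SE 0.096) at a mean level of 6.32. The median difference of the 57 rows was 0.001.

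Genes around the ribosomal proteins were read from lists, and counts at an unadjusted p under 0.05 for genotype stand beside the 9.26% of all genes. Fau, the small subunit gene outside the symbol rule, had 2 rows. Its brightest row, which lay among rows of chromosome 16, differed by 0.056 (SE 0.048). The dimmer row, among rows of its own chromosome 19, read 7.35, 7.22 and 7.44 in the wild-type males and 7.31, 7.41 and 7.24 in the wild-type females. In that row the knockout males read 7.49, 7.57 and 7.50 and the knockout females 7.69, 7.70 and 7.53. All 6 knockout arrays of the dimmer row, described after its values were seen, lay above all 6 controls. In the brightest rows of all genes 0.55% did not overlap, and this share was not computed over dimmer rows. The difference in that row was 0.25 (SE 0.056, limma adjusted p = 0.3 over all 41345 rows), so the 2 rows of Fau differed in size of difference and neither passed. The list of S6 kinases (Rps6ka and Rps6kb genes) and the TOR branch also held Cnbp, Zfp9, Myc and Mycn. Of its 18 measured genes, 10 were higher and 8 lower. In limma 1 (5.56%) reached an unadjusted p under 0.05 and 0 passed the adjusted threshold. Eif4ebp2, a translation repressor released by TOR, differed by 0.16 (SE 0.053, limma adjusted p = 0.462), and the kinase gene Rps6ka5 by -0.080. Among 16 genes with TOP mRNAs, most of them translation factors, 10 were lower. Of these, 4 (25% of the list, against 9.26% of all genes) reached an unadjusted p under 0.05 in limma and 0 passed the adjusted threshold. Eif4b, which aids the helicase that opens mRNA, differed by -0.15 (SE 0.041, adjusted p = 0.335). Eef1a1, which delivers aminoacyl-tRNA, differed by -0.13 (SE 0.052). In females against males, 15 of these 16 genes were lower, with a median of -0.052. Of all 22180 genes 11375 were lower, with a median of -0.003.

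The 48 ribosome assembly and snoRNP genes had a median genotype difference of 0.011, with 27 higher and 21 lower, 3 (6.25%, against 9.26% of all genes) at an unadjusted p under 0.05 in limma and 0 past the adjusted threshold. Ncl, the nucleolar protein nucleolin, differed by -0.16 (SE 0.044, adjusted p = 0.329), and Bop1, of the large subunit assembly factors, by 0.10 (SE 0.037). Of these 48 genes, 41 were lower in females than in males, with a median of -0.062 beside -0.003 over all genes. Other lists also leaned this way, such as the oligodendrocyte markers (10 of 11) and the Bergmann glia and astrocyte markers (9 of 10). Others did not, such as the choroid plexus markers (5 of 13 lower) and the microglia markers (3 of 11). The 15 genes of RNA polymerase I and its factors had a median genotype difference of 0.006 and 0 members at an unadjusted p under 0.05 in limma, with Twistnb at 0.069 and Polr1a, its largest subunit, at -0.062. In the nucleolar stress and p53 list, the p53 target Phlda3 differed by -0.21 (SE 0.065) and the cell cycle inhibitor Cdkn1a by 0.31 (SE 0.12), with 2 of 8 genes (25%, against 9.26% of all genes) at an unadjusted p under 0.05 in limma and 0 past the adjusted threshold.

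Proteins of the mitochondrial ribosome, which translates the messages of the mitochondrial genome, are encoded by separate nuclear genes. Of 71 Mrpl and Mrps genes, 59 were higher and 12 lower in the knockouts, where 10998 of all 22180 genes were higher. The median difference was 0.053, with 9 genes at an unadjusted p under 0.05 (12.7%, against 9.26% of all genes), all higher, and 0 past the adjusted threshold. The cytosolic set had 31 higher and 38 lower, with a median of -0.008. Mrps18b differed by 0.17 (SE 0.053) and Mrpl42 by 0.15 (SE 0.053). In males the mitochondrial median was 0.008, with 39 higher and 32 lower, and the cytosolic median -0.015. In females the mitochondrial median was 0.089, with 59 higher and 12 lower, and the cytosolic median 0.014. The difference between the sets was not tested.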

How the data were processed

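Total RNA of 12 mouse cerebella was hybridised to 12 Affymetrix arrays. The deposited values are RMA intensity values from core-exon analysis in Affymetrix Expression Console, per the labels, on a linear scale with array medians from 96.5 to 98.7. Per the submitters' processing notes, Transcriptome Analysis Console 3.0 is listed as well, with no role stated. The genome build of the array annotation is not given in the sources used here. RMA's quantile step gives all arrays the same distribution, so a shift shared by most genes would not be seen.

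Log2 of each intensity was taken, with no pseudocount, filter or further normalization, although log2 values had been assumed in the plan. Of 41345 rows, 23521 had 1 gene symbol in the platform annotation, 1814 several and 16010 none. The brightest single-symbol row was kept for each of 22180 genes. Group means were fitted with limma 3.58.1 (R 4.3.3) over the 4 groups, moderated with eBayes, and 5 contrasts were tested two-sided with Benjamini-Hochberg adjustment over all genes, with a threshold of 0.05. The code was tested on simulated data. Groups came from the source names, and replicate numbers, given in record order, only name an array. The labels describe separate animals but name no litter or batch, so p-values measure the spread between these samples, and 3 arrays per group limit the precision.

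The ribosomal protein genes and the lists were chosen with earlier results of these data known. Named genes were those past the threshold, in each contrast the 3 per direction with the smallest p, X-linked genes, paralogs, Rps19bp1, Rpl22, Rps27, the 5 brightest and 5 dimmest, and the 2 genes of each list with the smallest p for genotype. Genes named for arrays that do not overlap, for a wide range or for their rows were added after their values were seen.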

Additional observations from a re-analysis of the deposited data

How the results depend on the processing

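The 21 alternatives were an intensity trend and a robust fit in limma, genes above the median brightness, a further quantile normalization, the mean of all rows of a gene, array weights, the choroid plexus level as a covariate, an additive fit of genotype and sex (for these 2 contrasts only), leaving out each array in turn, and, chosen after seeing the data, the brightest row among rows of the gene's own chromosome. Under each of them 0 ribosomal protein genes passed in any contrast, and the smallest adjusted p was 0.127. The 30 differences of named genes kept their sign except under the choice of row, but several moved by over 1.5 times. Without WT_male replicate 2, Rpl32 was 0.088 in males and 0.082 over both sexes, and Rps28 0.065 for sex. Without WT_female replicate 3, Rps16 was 0.135 in females and 0.142 for the interaction, and Rpl30 -0.498 for the interaction. The interaction of Rpl30 was -0.171 without WT_female replicate 2 and -0.217 without KO_female replicate 2. Without KO_female replicate 3, Rpl27a was -0.148 for the interaction, Rps28 0.064 for sex and Rpl3 -0.076 in females. Rpl3 in females was -0.080 without WT_female replicate 1. Rps24 in males was 0.089 without KO_male replicate 2, 0.253 without KO_male replicate 3 and 0.012 with the row of its own chromosome. With that row Rps19 was -0.102 over both sexes, -0.101 in males and -0.103 in females. With the mean of all rows, Rps24 was -0.148 for the interaction, and Rps26 0.044 and Rps28 0.022 for sex. Rpl3 in females was 0.021 with the mean of all rows and 0.023 with the row of its own chromosome. With that row the interaction of Rps24 was 0.016, the sex difference of Rps26 -0.013 and that of Rps28 -0.062. The median over the 69 genes changed sign within a sex when single arrays were left out, from -0.027 to 0.006 in males and from -0.008 to 0.025 in females. The median interaction of 0.032 ran from 0.015 to 0.054 when single arrays were left out, 0.054 without WT_female replicate 2. Over all alternatives, genes of the 69 at an unadjusted p under 0.05 numbered from 2 to 10 for genotype over both sexes (10 with the intensity trend, 2 without WT_female replicate 3 or KO_male replicate 1, 7 without KO_female replicate 1), 2 to 6 in males (2 without WT_male replicate 2, KO_male replicate 1 or KO_male replicate 3), 2 to 7 in females (2 without WT_female replicate 2 or KO_female replicate 2, 3 without WT_male replicate 1, WT_male replicate 3, WT_female replicate 3 or KO_male replicate 3), 1 to 4 for the interaction (4 without KO_female replicate 3, 3 without WT_female replicate 3, 2 without any other array but KO_male replicate 1 and KO_female replicate 2) and 3 to 10 for sex (10 with the intensity trend, 3 without WT_male replicate 3). Over all genes, those past the adjusted threshold numbered 3 to 18 for genotype over both sexes (5 as reported), 2 to 5 in males (5), 3 to 26 in females (5), 0 to 2 for the interaction (0) and 6 to 15 for sex (8). No paired analysis was possible because the labels give no replicate numbers shared between groups. With 3 arrays per group, the median SE of a ribosomal protein gene's difference was 0.062 over both sexes and 0.088 within a sex.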
